A study of Homo sapiens with 8 samples.

Results

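A total of 253 transcribed unprocessed pseudogenes were described here, out of 17912 genes with a deposited value. The biotype column of the files gave this class to 297 genes, and the 253 were selected on their signal, as those whose mean across the 8 libraries reached 1. Signal is the deposited per-gene expression value, which the file labels call both CPM and TPM, so that its scaling for gene length is not established. Just inside that threshold lay FAM21FP at a mean of 1.02 and NMRAL2P at 1.033, and just outside lay RASA4CP at 0.957 and ENSG00000284727 at 0.948. CD99P1 is listed once each for its X and Y copies of a shared region and so counts for 2 of the 253. The mean that chose the genes used both treatments. It fell under 1 in the SF153 libraries alone for 4 of the 253 and in the DMSO libraries alone for 12, of which 2 were called higher. The 44 genes under the threshold were not tested here.

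The cells were NKM-1, an established human myeloid leukemia line that the labels call wildtype. They received SF153 at 30 uM for 48 h, or DMSO, the solvent control, and the series title describes an inhibitor of UHM splicing factors. Each treatment had 4 libraries of total RNA depleted of ribosomal RNA, in batches 1 and 2 with 2 libraries each, and a name such as SF153 2.1 gives the batch before the point and the library after it. The labels do not state that libraries 1.1 and 1.2 were separate cultures, so the spread behind each p-value may be technical.

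An unprocessed pseudogene is a copy of a gene made by duplication of genomic DNA. It keeps introns and often the flanking sequence of the gene it came from, here called its parent, and it has lost an intact coding sequence. Processed pseudogenes, by contrast, arise from a reverse-transcribed mRNA and lack introns. Many unprocessed copies lie in recently duplicated blocks of the human genome, such as those on chromosomes 7, 15 and 16, and the transcribed ones make RNA that can resemble the mRNA of their parent. A read from a stretch that is identical in both copies cannot be assigned to either from its sequence.

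How alike such copies are is shown by 4 pairs that the results below turn on. Each stretch of 90 bases is from a GENCODE 29 transcript on GRCh38, written 5′ to 3′, and lies within a single exon of each copy and within the coding sequence of the coding copy. Capitals mark the bases that differ between the 2 sequences of a pair. SMG1P1 (chr16:22454702-22454791, + strand) and SMG1 (chr16:18896867-18896956, - strand), a kinase of nonsense-mediated mRNA decay, differed at 2 bases here and were 97.6% identical over 4233 aligned bases.
SMG1P1: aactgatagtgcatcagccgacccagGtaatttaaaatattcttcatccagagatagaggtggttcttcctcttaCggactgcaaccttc
SMG1: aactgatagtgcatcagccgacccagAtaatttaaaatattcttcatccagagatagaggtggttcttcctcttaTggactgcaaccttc
HERC2P2 (chr15:22537489-22537578, + strand) and the ubiquitin ligase HERC2 (chr15:28238632-28238721, - strand) differed at 3 bases here and were 97.2% identical over 4453.
HERC2P2: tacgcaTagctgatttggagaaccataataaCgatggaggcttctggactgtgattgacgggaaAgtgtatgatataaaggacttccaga
HERC2: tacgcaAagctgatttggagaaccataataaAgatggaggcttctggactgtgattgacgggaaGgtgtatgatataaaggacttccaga
SORD2P (chr15:44831598-44831687, - strand) and sorbitol dehydrogenase, SORD (chr15:45068893-45068982, + strand), differed at 1 base and were 98.9% identical over 2320.
SORD2P: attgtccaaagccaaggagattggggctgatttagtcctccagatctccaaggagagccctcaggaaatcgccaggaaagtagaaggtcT
SORD: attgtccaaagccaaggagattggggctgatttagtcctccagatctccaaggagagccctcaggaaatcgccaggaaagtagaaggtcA
NAPSB (chr19:50337029-50337118, - strand) and the aspartic protease NAPSA (chr19:50361675-50361764, - strand) were farther apart, with 8 differences here and 90.6% identity over 1346.
NAPSB: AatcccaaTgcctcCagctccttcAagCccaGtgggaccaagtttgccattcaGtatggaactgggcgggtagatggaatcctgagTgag
NAPSA: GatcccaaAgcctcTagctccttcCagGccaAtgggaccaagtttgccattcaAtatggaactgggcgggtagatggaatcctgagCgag

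The libraries differed in composition as well as treatment. Mitochondrial genes took 9.17, 9.92, 16.8 and 16.8% of the signal in SF153 1.1, 1.2, 2.1 and 2.2, against 9.38 to 9.63% in the DMSO libraries. The share of RN7SK, an abundant small RNA, was 18.7, 18.2, 11.4 and 12.1% in the same SF153 libraries, against 11.7 to 13.9% in DMSO. The part these shares play in the differences below was not tested beyond the scalings given. The myeloid markers CD33, MPO, SPI1, CEBPA, CSF3R, FLT3, ITGAM and LYZ were all listed, and KIT and all 10 checked markers of T and B cells, erythroid cells, epithelium and fibroblasts were not listed in the files used here.

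Most of the pseudogenes that passed the test had higher signal in SF153-treated cells. In limma with Benjamini-Hochberg adjustment over all 15542 genes tested, 96 of the 253 rose and 8 fell. Across all genes tested, 13.0% were called higher and 24.3% lower. Among the 253 the shares were 37.9% and 3.16%. The median log2 difference, SF153 minus DMSO on log2(signal + 1), was 0.33 for the pseudogenes and -0.03 for all genes, and it was positive for 213 of the 253 against 47.3% of all genes. All 4 SF153 libraries lay above all 4 DMSO libraries for 91 pseudogenes, where 13.2% of all genes did so, and below them for 9, where 23.6% did.

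The summed signal of the 253 made up 0.691, 0.689, 0.902 and 0.888% of SF153 1.1, 1.2, 2.1 and 2.2, against 0.536, 0.523, 0.557 and 0.549% of DMSO 1.1, 1.2, 2.1 and 2.2. The groups did not overlap, and the 2 SF153 libraries of batch 2 were the highest. Those 2 libraries also had the smallest total signal to divide by, 828381 and 835840, where every other library had 990815 or more. Undivided, the sums of the 253 were 7062, 6917, 7470 and 7420 in SF153 1.1, 1.2, 2.1 and 2.2. In DMSO 1.1, 1.2, 2.1 and 2.2 they were 5313, 5208, 5650 and 5637. The limma fit used the undivided values. In batch 1 alone 50 rose and 5 fell, where 5.54% of all genes rose and 14.6% fell, and in batch 2 alone 47 rose and 6 fell, where 5.53% rose and 15.8% fell. All 96 increases were positive in both batches, and all 8 decreases were negative in both. Because the calls came from these same 8 libraries, like signs are nearly built in and are no separate check. The difference between batches in the effect of SF153 had an adjusted p under 0.05 for 0 of the 253 in limma, with 17 at an unadjusted p under 0.05. Of all genes, 1.15% passed the adjusted limit and 10.1% the unadjusted limit, so the count of 0 does not set the pseudogenes apart. In a bulk library, a change in every cell and a change in some of the cells cannot be told apart, nor can fewer cells of a type and less RNA per cell.

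The count of increases moved with the scaling and with what was taken as a replicate. Rescaled to the signal left without mitochondrial and small RNA genes, which moved the median of all genes to 0.28, 160 rose and 6 fell, and of all genes 34.9% rose and 13.8% fell. The median of the pseudogenes then stood 0.39 above that of all genes, against 0.36 as deposited. When both libraries of a batch and treatment were averaged, leaving 2 means against 2, 51 rose and 7 fell, and of all genes 6.10% rose and 16.5% fell. Of the 96 increases, 72 stayed below an adjusted p of 0.05 whichever single library was left out.

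Other pseudogene classes and long noncoding RNAs also had positive medians. Transcribed unitary pseudogenes had the call share closest to that of the 253, with 9 of 29 or 31.03% higher and 2 lower. Their median was larger, at 0.36. Of 108 unprocessed pseudogenes not annotated as transcribed, 20 rose and 0 fell at that threshold in limma, with a median of 0.30. Transcribed processed pseudogenes had 30 increases and 4 decreases of 107 and a median of 0.32, and processed pseudogenes had 126 and 40 of 739 and a median of 0.31. Long noncoding RNAs had 446 and 100 of 2709 and a median of 0.19. Protein-coding genes lay on the other side, with 1214 increases, 3599 decreases and a median of -0.15 over 11085 genes. The classes differed in signal, with a median mean signal of 10.1 for the 253, 3.28 for processed pseudogenes and 18.5 for protein-coding genes, and no test of the difference between classes was made.

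**Figure D1:**
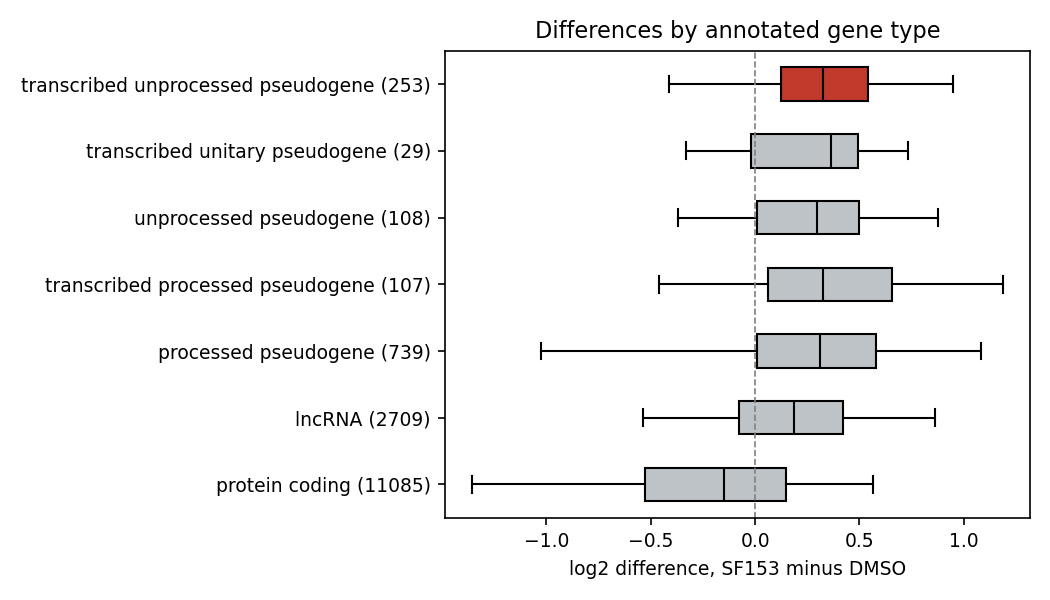
Log2 difference (SF153 minus DMSO) of tested genes by annotated type, with the number of genes in brackets. Boxes span the quartiles, lines inside them are medians and whiskers reach the 5th and 95th percentiles. The pseudogene classes have medians from 0.30 to 0.36, and protein-coding genes have a median of -0.15.

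Calls were more frequent among pseudogenes with more signal. Of the 89 with a mean from 1 to 5, 9 rose and 1 fell. Of the 37 from 5 to 10, 15 rose and 2 fell, and of those from 10 to 100, 61 rose and 5 fell, or 53.5 and 4.39%. Among the 13 with a mean of 100 or more, 11 rose, and the other two, SNX18P3 and ENSG00000237094, had differences of 0.22 and 0.33 (adjusted p = 0.14 and 0.083). In all genes the share that rose also grew with signal, at 8.01, 12.4, 15.02 and 21.8% in the same 4 ranges of the mean. The share of the pseudogenes was close to it in the lowest range, at 10.1%, and 84.6% in the highest.

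**Figure D2:**
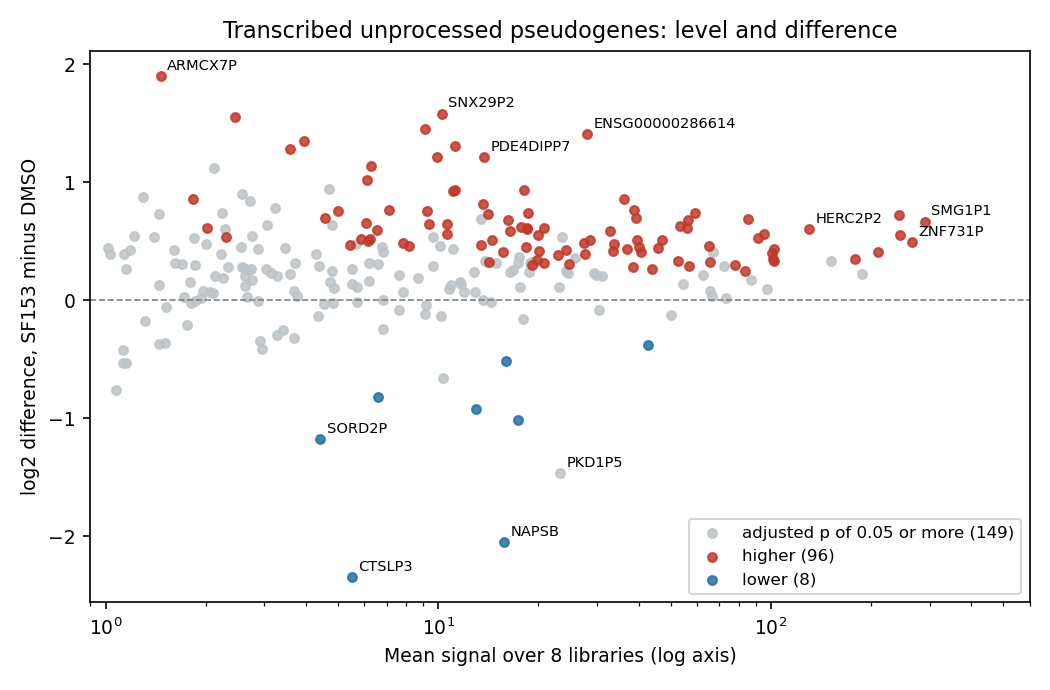
Log2 difference (SF153 minus DMSO) of the 253 pseudogenes against their mean signal over 8 libraries on a log axis; red points were called higher (96), blue points lower (8) and grey points had an adjusted p of 0.05 or more. Points above a signal of 100 all lie above 0, and NAPSB and CTSLP3 are the lowest points.

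The pseudogenes with the highest signal included copies of genes for RNA decay, cohesin and zinc finger proteins. SMG1P1 had signals of 313.4, 338.3, 388 and 388.9 in SF153 1.1, 1.2, 2.1 and 2.2, against 233.1, 205.6, 227.6 and 230.2 in DMSO 1.1, 1.2, 2.1 and 2.2. The groups lay far apart, with the lowest SF153 library above the highest DMSO library, and the log2 difference was 0.67 with an SE of 0.09 (adjusted p = 0.00034). ZNF731P, on chromosome 1 (chr1:247189851-247210856), varied little between libraries, with 306.2, 301, 318.1 and 316.1 in SF153 against 221.9, 224, 217.9 and 218.9 in DMSO. Its log2 difference was 0.49 with an SE of 0.06 (adjusted p = 0.00017). Only 15.96% of its sequence words of 31 bases occurred in any other gene.

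Copies of STAG3, the gene of a cohesin subunit used in meiosis, were numbered STAG3L1 to STAG3L5P, and all 5 rose. STAG3 itself rose by more on the log2 scale than any of them, from a low signal. It averaged 6.35 ± 1.40 in SF153 and 1.33 ± 0.516 in DMSO (log2 difference 1.67, adjusted p = 0.00034 in limma). STAG3L3 had 283.7, 275.1, 308.3 and 294.9 in SF153 libraries, against 195.9, 190.7, 194.9 and 208.8 in DMSO libraries (log2 difference 0.55, adjusted p = 0.00018). STAG3L5P had 251.1, 249.5, 220.6 and 238.7 in SF153 libraries, against 183.3, 165, 184.5 and 190.5 in DMSO libraries (0.41, adjusted p = 0.0019). Neither copy overlapped between groups. The remaining copies had log2 differences of 0.74 for STAG3L1, 0.56 for STAG3L2 and 0.48 for STAG3L4. STAG3L1 overlapped the coding gene TRIM73 on the same strand, and TRIM73 rose by 0.78 (adjusted p = 0.00036 in limma). STAG3L5P overlapped the gene STAG3L5P-PVRIG2P-PILRB on the same strand. Of the words of STAG3L1, STAG3L2 and STAG3L3, 71.5, 79.8 and 75.8% occurred in another gene, so the division of signal among them is uncertain. Averaging libraries lost the calls of STAG3L4 and STAG3L5P, and STAG3L4 also lost its call without SF153 2.1, without SF153 2.2 or without DMSO 1.2 (largest adjusted p = 0.056).

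The SMG1 copies on chromosome 16 had the largest sum of the 22 symbol families. Over the 6 copies the signal was 737.8, 789.5, 901.8 and 919.1 in SF153 1.1, 1.2, 2.1 and 2.2, against 518.6, 513.7, 551.3 and 558.7 in DMSO 1.1, 1.2, 2.1 and 2.2. The sums thus averaged 837 ± 87.7 in SF153 and 535.6 ± 22.8 in DMSO (SD, n = 4 each). SMG1P1, SMG1P4 and SMG1P5 rose by 0.67, 0.72 and 0.68 on the log2 scale. SMG1P2, SMG1P3 and SMG1P7 had differences of 0.48, 0.29 and 0.32 and did not pass the test. SMG1 itself averaged 160.7 ± 14.3 in SF153 and 144.8 ± 11.3 in DMSO, a log2 difference of 0.15 (adjusted p = 0.21 in limma). Between 36.6 and 58.8% of the words of these copies occurred in SMG1, and between 51.5 and 97.7% in any other gene, so that the division of signal among the copies is less certain than their sum.

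Copies of HERC2 formed the next family, on chromosomes 15 and 16. The 7 copies summed to 550.9, 528.6, 592.8 and 562 in SF153 libraries, against 392.7, 400.8, 410.4 and 424.4 in DMSO libraries. HERC2P2, HERC2P3, HERC2P4 and HERC2P9 rose, with log2 differences of 0.60, 0.40, 0.44 and 0.35. HERC2P5, HERC2P7 and HERC2P8 had differences of 0.32, 0.16 and 0.54 with wide spread, since HERC2P5 ranged between 11.1 and 31.4 within SF153 and between 3.799 and 23.4 within DMSO. HERC2 averaged 65.1 ± 1.71 in SF153 and 64.9 ± 8.99 in DMSO (log2 difference 0.01, adjusted p = 0.93 in limma). HERC2P4 lost its call without SF153 2.1, SF153 2.2, DMSO 1.1 or DMSO 2.2 (largest adjusted p = 0.065), and averaging lost the calls of HERC2P3, HERC2P4 and HERC2P9.

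Over all symbol families with at least 2 members, 22 families held 71 of the 253 listed genes. The CD99 family consists only of the 2 listings of CD99P1. The family sum was higher in all 4 SF153 libraries than in all 4 DMSO libraries for 13 families and lower in all 4 for 0. Of single genes, 13.2% of all tested lay above in this way and 23.6% below, and 36.0% of the 253 lay above. No sums were formed over other genes, so the 13 have no like share to be read against. The mean of the sum was higher in SF153 for 21 of the 22 families. Copies of MRPS31, a mitochondrial ribosomal protein gene, were the exception, at 8.95 ± 3.27 in SF153 and 10.5 ± 2.31 in DMSO. Copies of the centrosomal and Golgi scaffold PDE4DIP had the largest relative difference, with sums of 25.3, 30.6, 31.5 and 27.7 in SF153 libraries, against 13.5, 15.3, 12.6 and 10.6 in DMSO libraries. Both PDE4DIPP7 and PDE4DIPP2 rose, by 1.21 and 0.76 on the log2 scale. PDE4DIPP7 had 0% of its words in PDE4DIP, and PDE4DIPP2 had 80.6%.

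**Figure D3:**
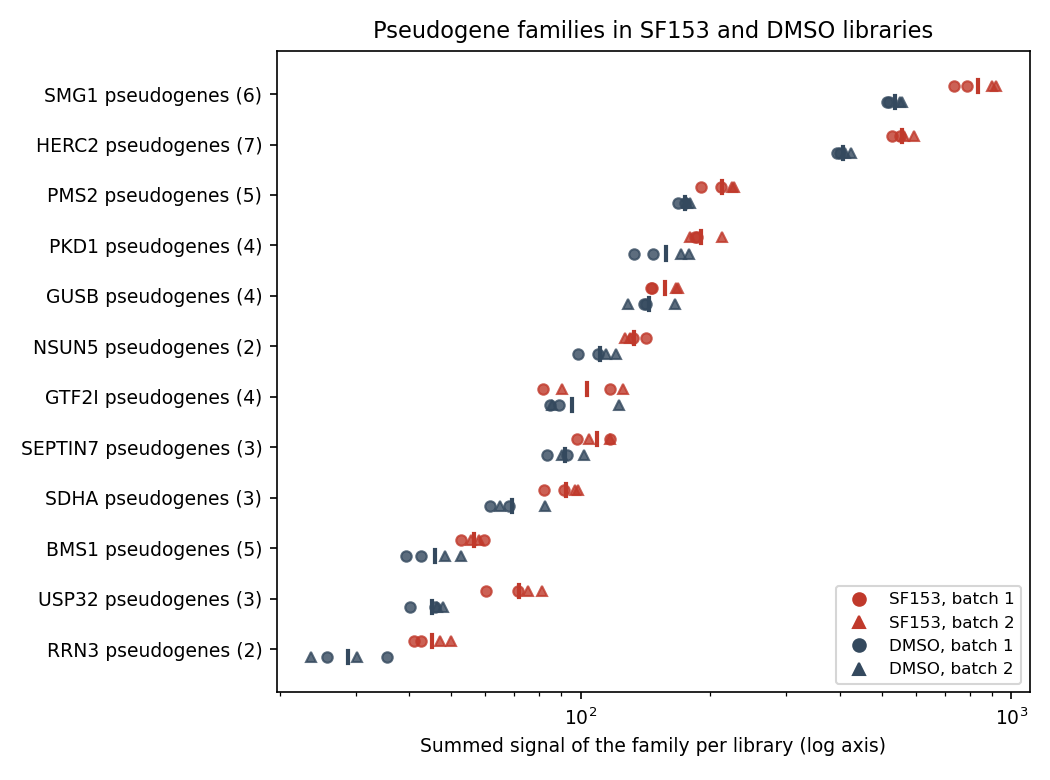
Summed signal per library on a log axis for the 12 pseudogene families with the most signal, with the number of copies in brackets; circles are batch 1, triangles batch 2 and vertical bars the group means, with SF153 in red above DMSO in blue-grey. For SMG1 copies the SF153 libraries lie between 737.8 and 919.1 and the DMSO libraries between 513.7 and 558.7.

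Sorted by the known role of the gene they copy, with groups drawn up after values had been seen, the pseudogenes had a positive median log2 difference in every group named here. Copies of mismatch repair and cohesin genes had 8 increases and 0 decreases of 11, with a median of 0.48. Within it, PMS2P3, PMS2P4 and PMS2P10 rose by 0.46, 0.31 and 0.64 on the log2 scale, whereas PMS2P1 averaged 100.4 ± 5.77 in SF153 and 94.0 ± 3.72 in DMSO (adjusted p = 0.32). PMS2P3 lost its call without SF153 1.1, 2.1 or 2.2 or DMSO 1.2 (largest adjusted p = 0.057). Copies of ubiquitin ligases, ubiquitin-conjugating enzymes and deubiquitinases had 8 increases of 14 and a median of 0.49. USP32P2, a deubiquitinase copy, had 39.9, 49.7, 57.1 and 49.7 in SF153 libraries, against 29.4, 24.7, 32.0 and 33.0 in DMSO libraries (log2 difference 0.70, adjusted p = 0.0020).

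Copies of genes for RNA decay, RNA modification and ribosome assembly had 9 increases and 0 decreases of 23 and a median of 0.28. NSUN5P1 and NSUN5P2 are copies of an RNA methyltransferase gene. Their log2 differences were 0.25 and 0.28 (adjusted p = 0.025 and 0.043), and both lost the call when libraries were averaged. NSUN5P1 also lost it without SF153 1.1, DMSO 1.1 or DMSO 1.2 (largest adjusted p = 0.066), and NSUN5P2 without any single library other than DMSO 2.2 (0.10). Copies of transcription and chromatin genes had 3 increases of 12 and a median of 0.20. Both RRN3 copies rose. RRN3 encodes an initiation factor of RNA polymerase I. RRN3P1 had 23, 24.6, 26.5 and 26.9 in SF153 libraries, against 17.2, 18.3, 15.2 and 14.0 in DMSO libraries (log2 difference 0.61, adjusted p = 0.0015). For RRN3P3 the groups overlapped, with 16.3 to 23.5 in SF153 and 8.44 to 17.1 in DMSO, and its call was lost without any of 5 libraries, SF153 1.1, 2.1 and 2.2 and DMSO 1.1 and 2.1 (largest adjusted p = 0.12). None of the 4 copies of the transcription factor gene GTF2I passed the test, and GTF2IP1, with 91.7% of its words in GTF2I, averaged 67.7 ± 17.9 in SF153 and 65.4 ± 15.2 in DMSO. GTF2IP12, GTF2IP13 and GTF2IP20 had 0% of their words in GTF2I.

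Immune receptor and immune regulator copies had 4 increases and 0 decreases of 11, which include both listings of CD99P1. FCGR1BP had 22.9, 21.1, 23.7 and 19.1 in SF153 libraries, against 12.5, 15.9, 12.9 and 13.8 in DMSO libraries, and rose by 0.62 on the log2 scale (adjusted p = 0.0016). The intact gene FCGR1A, the high-affinity Fc gamma receptor of myeloid cells, which shared 49.05% of the words of FCGR1BP, averaged 29.5 ± 4.89 in SF153 and 28.4 ± 7.85 in DMSO and did not pass the test (adjusted p = 0.78). SIGLEC22P, a copy related to the myeloid lectin gene CD33, averaged 18.01 ± 5.48 in SF153 and 10.1 ± 1.43 in DMSO (adjusted p = 0.019), and CD33 rose as well, by 0.40. The SIGLEC22P call was lost without SF153 2.1 or DMSO 2.1 (largest adjusted p = 0.056). KIR3DX1, of the killer cell immunoglobulin-like receptor family, averaged 13.2 ± 1.78 in SF153 and 8.07 ± 1.14 in DMSO (adjusted p = 0.0052). Zinc finger copies had 2 increases of 10, ZNF731P and ZNF767P, and ZNF767P lost its call without any of 6 libraries, SF153 1.1, 1.2 and 2.1 and DMSO 1.1, 1.2 and 2.2 (largest adjusted p = 0.079), and when libraries were averaged.

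Copies of metabolic enzyme genes were the group with most decreases, 3 of 19, beside 6 increases and a median of 0.31. Of all genes tested 24.3% fell and 13.0% rose, and of the 253 pseudogenes 3.16% fell and 37.9% rose. GLUD1P3, a copy of the glutamate dehydrogenase gene, averaged 26.1 ± 2.85 in SF153 and 19.7 ± 1.52 in DMSO and rose by 0.38 (adjusted p = 0.015). CA5BP1, a copy of a mitochondrial carbonic anhydrase gene, averaged 21.4 ± 2.37 in SF153 and 15.4 ± 1.15 in DMSO and rose by 0.45 (adjusted p = 0.0072). The decreases were SORD2P, AOX2P and AOX3P.

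Increases of at least 1 on the log2 scale among called pseudogenes numbered 12, where 1.56% of all genes passed both limits. ARMCX7P was listed at 0 in all 4 DMSO libraries and had 5.18, 2.33, 2.57 and 1.65 in SF153 1.1, 1.2, 2.1 and 2.2 (adjusted p = 0.0006). No fold is given against a group at 0, and 97.0% of the words of ARMCX7P occurred in the protein-coding gene ARMCX6, which fell to 8.18 ± 1.27 in SF153, against 14.4 ± 2.08 in DMSO (log2 difference -0.75, adjusted p = 0.0022). SNX29P2, a copy of a sorting nexin gene on chromosome 16 (chr16:29350746-29370272), had 18.7, 17.7, 15.2 and 11.8 in SF153 libraries, against 4.97, 4.83, 5.40 and 3.28 in DMSO libraries. The lowest SF153 library had more than the highest DMSO library, and the log2 difference was 1.58 with an SE of 0.18 (adjusted p = 0.00014).

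ENSG00000286614, which has no symbol in the files and no position in GENCODE 29, had 39.4, 35.9, 45.6 and 43.7 in SF153 libraries, against 13.5, 14.2, 16.96 and 14.9 in DMSO libraries (log2 difference 1.41, adjusted p = 2.9e-05). This was the highest signal among the 12. MST1L, a copy of the gene of macrophage stimulating protein, averaged 5.52 ± 1.30 in SF153 and 1.64 ± 0.204 in DMSO (1.28, adjusted p = 0.00054). Its intact relative MST1 moved the same way, at 64.3 ± 5.63 in SF153 and 32.6 ± 4.58 in DMSO (0.97, adjusted p = 0.00015). ENSG00000166104 and GOLGA2P11 lie next to each other on chromosome 15 (chr15:62227896-62253235 and chr15:62253730-62270680, both on the - strand) and rose by 1.45 and 1.02. ENSG00000217801, ENSG00000287515, ENSG00000271127, ANKRD20A5P, PDE4DIPP7 and NBEAP2 completed the 12, with log2 differences from 1.14 for NBEAP2 to 1.56 for ENSG00000217801.

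Decreases of at least 1 on the log2 scale among called pseudogenes numbered 4, where 7.78% of all genes passed both limits. CTSLP3, a copy related to the lysosomal protease gene CTSL, had 0.946, 0.277, 0.697 and 3.38 in SF153 1.1, 1.2, 2.1 and 2.2, against 10.4, 8.22, 12.4 and 7.83 in DMSO 1.1, 1.2, 2.1 and 2.2 (log2 difference -2.35, adjusted p = 0.00063). NAPSB, at chr19:50333796-50344767, had 7.31, 4.41, 3.57 and 7.38 in SF153 libraries, against 25.1, 32.1, 22.04 and 24.4 in DMSO libraries (-2.05, adjusted p = 1e-04). The groups were well apart for both. NAPSA, the intact protease gene, held 15.96% of the words of NAPSB and went the other way, with a log2 difference of 0.69.

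SORD2P had 2.10, 2.32, 2.18 and 2.67 in SF153 libraries, against 5.98, 7.15, 7.23 and 5.71 in DMSO libraries (log2 difference -1.18, adjusted p = 0.00021). SORD fell as well, by 0.70 on the log2 scale, and held 72.9% of the words of SORD2P. ENSG00000170089 fell to 11.2 ± 0.798 in SF153, against 23.6 ± 2.34 in DMSO, and THOC3, an mRNA export gene that held 57.5% of its words, fell by 0.99. In both pairs most of the sequence is shared, and how much of either fall belongs to the pseudogene was not tested.

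The aldehyde oxidase copies AOX3P and AOX2P are neighbours on chromosome 2 (chr2:200678233-200734109 and chr2:200738608-200794239). Both overlap the gene AOX3P-AOX2P on the same strand, which holds 13.5% of the words of AOX3P and 13.7% of those of AOX2P. Whether their decreases are separate was not tested. AOX3P fell to 8.68 ± 2.34 in SF153, against 17.3 ± 4.25 in DMSO, and AOX2P to 13.0 ± 1.29 in SF153, against 19.01 ± 2.22 in DMSO. ABCC13, a transporter pseudogene with 0.606% of its words in any other gene, fell to 4.48 ± 0.567 in SF153, against 8.72 ± 1.49 in DMSO (adjusted p = 0.0021). LINC00869 had the smallest decrease, -0.38, and lost its call without SF153 1.1, 2.1 or 2.2 or DMSO 1.1 (largest adjusted p = 0.065) and under 3 other scalings. AOX2P lost its call in 2 of those 3 scalings, and both lost theirs when libraries were averaged.

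Whether a pseudogene moved apart from its parent was asked for the 107 whose symbol names a protein-coding gene in the files, 59 parents in all. The median share of a pseudogene's words found in the named parent was 13.5%, with a range from 0 to 100%. A parent named by symbol is therefore not always close in spliced sequence. The ratio of their signals was formed within each library, with 1 added to each signal, and compared between treatments. A fixed factor for gene length cancels in a plain ratio, but only in part with the added 1, and least at low signal. Percentages of the parent signal given below are plain ratios. Because the length scaling of signal is not established, a ratio gives no comparison of the levels of the 2 genes. The ratio was higher in all 4 SF153 libraries than in all 4 DMSO libraries for 40 pairs, or 37.4%, lower in all 4 for 1, and overlapping for 66. Each of the 41 had an exact two-sided permutation p of 0.0286, the smallest that 70 divisions of 8 libraries can give, with no adjustment over pairs. Among 522 pairs of other pseudogene classes, 59.8% were higher and 0.958% lower, so the share among the 107 was the lower of the 2. The median difference, pseudogene minus parent, was 0.35 on the log2 scale, against 1.43 in the other classes, and was positive for 89 pairs. Copies of the same gene share their parent, and with each parent counted once the median was 0.40, positive for 48 of 59.

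The parents themselves had 6 increases and 17 decreases of 59 at an adjusted p under 0.05 in limma, with a median log2 difference of -0.04. That is 10.2% higher and 28.8% lower, where 10.95 and 32.5% of all protein-coding genes tested were. These counts therefore do not set the parents apart. A pseudogene rose while its parent fell in 8 pairs, both rose in 5, and the pseudogene rose while its parent did not pass the test in 27. The pseudogene did not pass the test in 15 pairs with a fallen parent. It did not pass in 6 with a risen parent and in 46 where neither passed. Of all 107 pseudogenes 37.4% rose, and the share among those with a fallen parent was near that. The 8 pairs therefore do not set those pseudogenes apart. None of the 107 pseudogenes whose symbol names a parent fell. All 8 decreases were among the 146 whose symbol names no parent by the rule used here. That rule leaves out SORD2P and NAPSB, whose intact relatives are SORD and NAPSA. The 8 pseudogenes that rose while the parent fell were SDHAP1 and SDHAP4, RRN3P1 and RRN3P3, UBE2Q2P1, GLUD1P3, RPL32P3 and PDCD6P1.

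RPL32P3 stood farthest from its parent, the ribosomal protein gene RPL32. The pseudogene had 48.2, 41.2, 47.1 and 49.3 in SF153 libraries, against 26.9, 35.2, 33.0 and 40.5 in DMSO libraries, while RPL32 fell to 191.1 ± 63.2 in SF153, against 732.9 ± 49.9 in DMSO. The signal of RPL32P3 was thus 26.7 ± 9.945% of that of RPL32 in SF153 and 4.66 ± 0.947% in DMSO (SD, n = 4 each; exact permutation p = 0.0286). Only 0.480% of its words occurred in RPL32. The signal of GLUD1P3 was 74.4 ± 8.78% of that of GLUD1 in SF153 and 29.6 ± 4.135% in DMSO, and GLUD1 fell by 0.91 on the log2 scale. Averaging libraries ended the calls of RPL32P3 and GLUD1P3.

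SDHA, which encodes the flavoprotein subunit of succinate dehydrogenase, fell to 46.2 ± 4.27 in SF153, against 69.4 ± 2.95 in DMSO. Its copies SDHAP1 and SDHAP4 rose by 0.44 and 0.31, and SDHAP3 had a difference of 0.46 (adjusted p = 0.064). The signal of SDHAP1 was 116 ± 22.9% of that of SDHA in SF153 and 56.05 ± 9.59% in DMSO. Both increases depended on single libraries. SDHAP1 lost its call without SF153 2.1, SF153 2.2, DMSO 1.1, DMSO 1.2 or DMSO 2.2 (largest adjusted p = 0.069), SDHAP4 without SF153 1.1, 2.1 or 2.2 or DMSO 1.1, 1.2 or 2.2 (0.090), and both when libraries were averaged. The septin gene SEPTIN7 fell by 0.71 while its 3 copies had differences of 0.33, 0.25 and 0.21 and did not pass the test. PDCD6 fell by only 0.22, and its difference was 0.12 without mitochondrial and small RNA genes, so its direction turned with the scaling. The decreases of RRN3 and UBE2Q2 kept their sign and lost the call under the 3 other scalings. RRN3 also lost it without any single library other than DMSO 1.1 (largest adjusted p = 0.11), UBE2Q2 without SF153 1.1, 2.1 or 2.2 or DMSO 1.2 or 2.1 (0.11), and PDCD6 without SF153 1.2 or 2.2 or DMSO 1.1, 1.2 or 2.2 (0.079). PDCD6P1, with a log2 difference of 0.56, lost its call without SF153 1.1, 2.1 or 2.2 or DMSO 1.1, 2.1 or 2.2 (0.097).

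PKD1P5 was the pair that moved down against its parent. It had 4.11, 28.1, 3.30 and 27.0 in SF153 1.1, 1.2, 2.1 and 2.2, against 30.98, 30.7, 31.2 and 30.8 in DMSO 1.1, 1.2, 2.1 and 2.2, so that the first SF153 library of each batch was low and the second was close to DMSO (log2 difference -1.46, adjusted p = 0.085). Its relatives PKD1P4 and PKD1P6 rose, by 0.53 and 0.42, and the 4 PKD1 copies together averaged 190.4 ± 14.9 in SF153 and 157.3 ± 21.1 in DMSO. For PKD1P5, 94.3% of the words occurred in another gene. PKD1P6 lost its call without SF153 1.1, 2.1 or 2.2 or DMSO 1.1, 1.2 or 2.1 (largest adjusted p = 0.082), and averaging ended both increases.

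**Figure D4:**
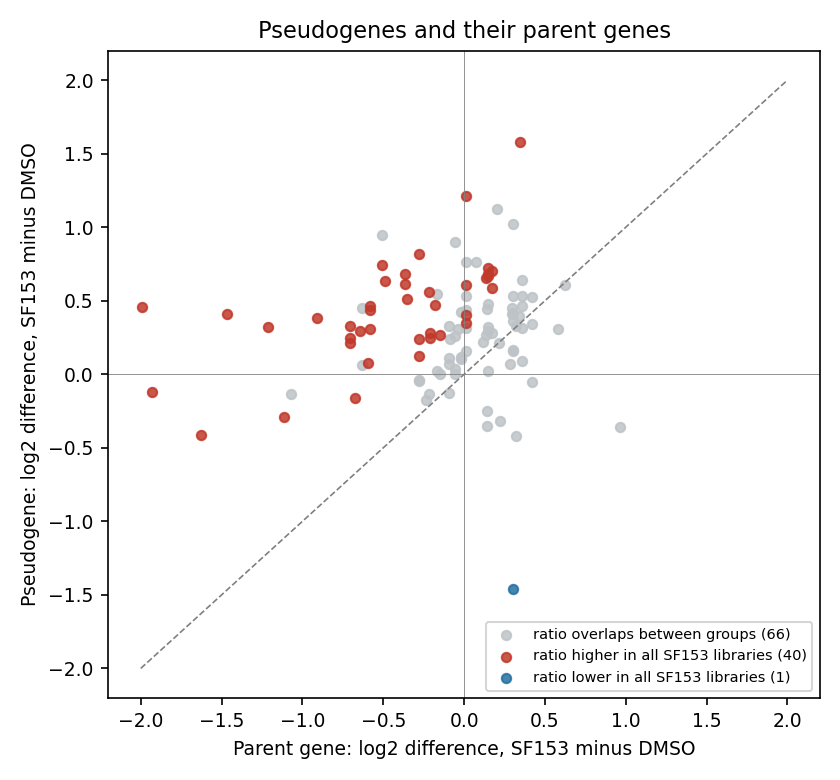
Log2 difference (SF153 minus DMSO) of 107 pseudogenes against that of the parent gene named by the symbol; the dashed line marks equal differences. Red points (40) have a pseudogene to parent ratio higher in all SF153 than in all DMSO libraries, the blue point, PKD1P5, has a lower ratio, and 66 grey points overlap.

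Sequence shared with other genes limits how reads can be divided. Of the 249 pseudogenes with a GENCODE 29 model, the median had 45.1% of its 31-base words in another gene, 42 had under 10% and 33 had at least 90%. Among the 133 with under 50%, 57 rose, 5 fell and the median log2 difference was 0.33. Among the 116 with 50% or more, 35 rose, 3 fell and the median was 0.32. The 42 with under 10% had 18 increases, 1 decrease and a median of 0.39, and the 33 with at least 90% had 11, 0 and 0.46. KIR3DX1 at 9.17%, CA5BP1 at 9.25% and GLUD1P3 at 8.74% were among the increases with little shared sequence. KIR3DX1 overlapped no tested gene, but CA5BP1 overlapped its parent CA5B on the same strand and GLUD1P3 overlapped DUSP8P5. For those, a low share does not by itself separate the signals. Of the 249 with a GENCODE 29 position, 88 overlapped another tested gene on the same strand, with 38 increases and 4 decreases, and 125 overlapped no tested gene, with 40 and 3.

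**Figure D5:**
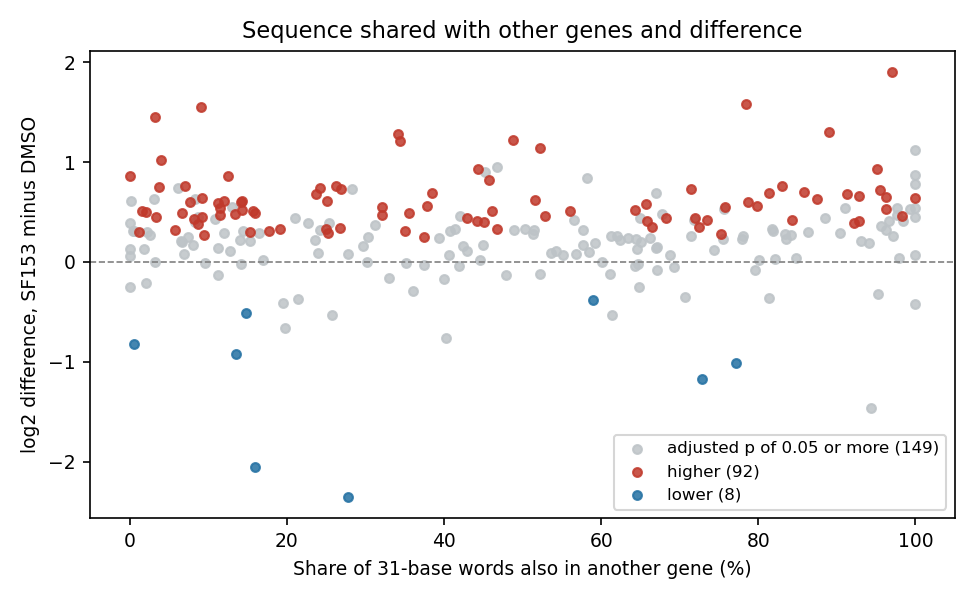
Log2 difference (SF153 minus DMSO) of the 249 pseudogenes with a transcript model against the share of their 31-base words found in another gene. Called increases (92, red) are spread from 0 to 100%, and the 8 called decreases (blue) lie between 0.606 and 77.1%.

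The 249 pseudogenes with a GENCODE 29 position lay on 24 chromosomes, X and Y included, and chromosomes 7, 15 and 16 together held 94. Chromosome 7 held 39, of which 18 rose, chromosome 16 held 29, of which 16 rose, and chromosome 15 held 26, of which 10 rose and 1 fell. Of all tested genes on chromosomes 7, 16 and 15, 15.2, 16.5 and 17.7% rose. Chromosome 1 held 25 with 11 increases and 1 decrease, chromosome 17 held 17 with 6 increases and chromosome 22 held 14 with 5. Of all tested genes on chromosomes 1, 17 and 22, 10.7, 15.9 and 14.25% rose and 28.1, 21.2 and 24.6% fell. Chains of at least 5 pseudogenes with gaps under 1 Mb numbered 10 and held 59, of which 28 rose and 2 fell. Of all 253 pseudogenes 37.9% rose and 3.16% fell, and of all genes tested 13.0 and 24.3%. Whether calls differed by position was not tested. In the chain at chr7:74882163-75528148, STAG3L1, STAG3L2, PMS2P3, PMS2P10 and NSUN5P1 rose and GTF2IP1, PMS2P13 and ENSG00000242073 did not pass the test, while 2 of the 5 tested coding genes there rose and 2 fell. At chr16:21446683-22492220, SMG1P1, SMG1P4, RRN3P1 and RRN3P3 rose, SMG1P3 did not pass the test, and of 8 coding genes 2 rose and 1 fell.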

How the data were processed

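Total RNA of NKM-1 cells was sequenced in 8 libraries. The deposited values are recorded here as signal: the authors' file labels call them both CPM and TPM, and since the columns do not share a sum they cannot be plain TPM. Per the submitters' processing notes, CASAVA 1.8.2, STAR, Salmon, edgeR and GRCh38 were used, in roles not stated; how genes were filtered before deposit is not stated either. Read depth is unknown, so no counting interval is given.

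Log2(signal + 1) was tested with limma 3.58.1 in R 4.3.3 with an intensity trend, for 15542 genes with a mean of at least 1, two-sided, with Benjamini-Hochberg adjustment over all of them and calls at 0.05. The script was tested on simulated data. This scale understates changes of low genes. Whether signal is scaled for gene length could not be established. Libraries carry a shared batch number, which pairs them, and deviations within a batch correlated little across treatments (mean r = 0.026 over genes). A parent is the protein-coding gene left when P and its number are taken off a symbol. Sequences, positions and 31-base words (spliced, sense strand) came from GENCODE 29, which the files' newer annotation only partly matches, and alignments from BLAST 2.17.0. Members, lists and rules were chosen with earlier results of these data known. Named with values were the 12 largest increases, up to 12 decreases, the 10 highest signals, members with called parents or extreme ratios, and symbol families; STAG3L1, STAG3L2, STAG3L4, FCGR1BP, SIGLEC22P, KIR3DX1, ZNF767P and CA5BP1 were added after their values were seen, as were non-parent relatives. A further sequence pair is not reported here.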

Additional observations from a re-analysis of the deposited data

Results flagged for a closer look

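In 60 groups of 4 libraries, from 30 of the pseudogenes described with values, 3 had a library far from the others, and chance flags about 1 group in 20. For ENSG00000166104 in SF153, library SF153 2.1 had 10.6 against 14.4 to 15.1 in the others, a gap of 0.846 of the group's range, above Dixon's 95% critical value. AOX2P in SF153 had 14.9 in SF153 2.2 against 12.3 to 12.5 in the others, a gap of 0.930. For ENSG00000237094 in DMSO, library DMSO 1.2 had 98.7 against 144.9 to 149.3 in the others, a gap of 0.914. The group means of these 3 pseudogenes include those libraries.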

How the results depend on the processing

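With batch as a replicate block, 99 pseudogenes rose and 8 fell, close to 96 and 8 without it, and the median was 0.33 in both. The number of increases was 160 without mitochondrial and small RNA genes, 51 with libraries averaged by treatment and batch, and 50 and 47 in batch 1 and batch 2 alone, where fewer libraries were fitted. The shares of all genes that rose were 34.9, 6.10, 5.54 and 5.53% in these 4 settings and 13.3% with the block, so the count for all genes moved the same way. Decreases numbered 5 in batch 1 alone. The 133 pseudogenes with under 50% of their words shared, a subset chosen after seeing the data, gave 57 increases and 5 decreases because fewer were counted. The median log2 difference was 0.25 with a pseudocount of 5, 0.40 with median-of-ratios scaling, 0.47 with quantile normalization, 0.67 without mitochondrial and small RNA genes, and 0.41 once a trend on transcript length and mean signal was removed, also chosen after seeing the data. The pseudogene minus parent median was 0.27 with a pseudocount of 5. The cause was not tested for the shifts with scaling. Leaving out each library gave 77 to 96 increases and 7 to 9 decreases, with 10.0 to 11.5% of all genes higher. Of the 96 increases, 94 passed under each of the 3 scalings. Without read counts, no limit of detection can be set for pseudogenes of low signal.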

Other observations

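Pseudogenes of the histone cluster varied between libraries more than between treatments. H2BC19P had 118.5, 113.2, 62.6 and 21.0 in SF153 1.1, 1.2, 2.1 and 2.2, against 90.9, 49.2, 44.4 and 85.9 in DMSO 1.1, 1.2, 2.1 and 2.2. H2BC20P ranged between 32.0 and 105.3 within SF153 and between 45.7 and 55.0 within DMSO. Neither passed the test (adjusted p = 0.98 and 0.74 in limma). Among the 44 pseudogenes of the class under the signal threshold, the mean on the log2 scale was higher in SF153 for 25 and lower for 17, with a median difference of 0.09. Of the FRG1 copies, FRG1HP averaged 42.6 ± 4.35 in SF153 and 31.1 ± 2.43 in DMSO (log2 difference 0.44, adjusted p = 0.0059 in limma), and FRG1CP averaged 12.3 ± 1.51 in SF153 and 11.04 ± 0.616 in DMSO (0.14, adjusted p = 0.35). FRG1 had a log2 difference of -1.33.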
